A study of Caenorhabditis elegans with 2 samples.

Results

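Synaptic vesicle fusion genes of Caenorhabditis elegans were examined for binding of FKH-10, a forkhead transcription factor, in whole L1 larvae. The 9 genes were given by name: unc-10, unc-13, unc-18, unc-64, snb-1, snt-1, ric-4, cpx-1 and tom-1. All 9 were found among the 19973 protein-coding genes annotated on the nuclear chromosomes. The data come from chromatin immunoprecipitation and sequencing (ChIP-seq) of 1 group of 2 biological replicates, each from its own biosample, with no second condition. Both replicates were strain OP337, genotype unc119(ed3) with wgIs377, a transgene that expresses FKH-10 with a C-terminal tag of TY1, EGFP and FLAG and carries unc119 as its marker. The larvae were of mixed sex and of unknown age, and the control named as possible in the labels was not analysed here. The chromatin came from whole animals of 1 transgenic line, so neurons were not separated from other cells and no RNA was measured.

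Neurotransmitter leaves a nerve terminal when vesicles fuse with the plasma membrane. A SNARE protein on the vesicle pairs with SNARE proteins on the target membrane, priming factors prepare the complex, and calcium acting on synaptotagmin sets off fusion. In the worm these proteins act at synapses throughout the nervous system, and unc mutants of the pathway are named for their uncoordinated movement.

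The summit bases of 7 FKH-10 peaks, with 50 bases to each side, are shown because they are the bound stretches the results turn on. They are the strongest summit of each gene on chromosomes II, III, V and X, with the unc-18 summit close to its start added. Each is RefSeq sequence of WBcel235, the assembly with ce11 coordinates, written 5′ to 3′ in the direction in which the gene is transcribed. Capitals mark the word GAGAGAGA or its complement on the other strand, the single one of 8 words searched that occurred.
snb-1, 2542 bp upstream, chrV:6658993-6659093, minus strand: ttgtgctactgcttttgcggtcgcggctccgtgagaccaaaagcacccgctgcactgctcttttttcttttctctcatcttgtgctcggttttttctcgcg
unc-64, 1309 bp upstream, chrIII:13275899-13275999, plus strand: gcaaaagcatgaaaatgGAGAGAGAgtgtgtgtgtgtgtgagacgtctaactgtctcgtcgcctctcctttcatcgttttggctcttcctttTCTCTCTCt
ric-4, 3676 bp upstream, chrV:10273940-10274040, minus strand: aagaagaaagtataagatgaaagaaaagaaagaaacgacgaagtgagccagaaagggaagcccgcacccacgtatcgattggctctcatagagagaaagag
unc-18, 2875 bp upstream, chrX:7679971-7680071, plus strand: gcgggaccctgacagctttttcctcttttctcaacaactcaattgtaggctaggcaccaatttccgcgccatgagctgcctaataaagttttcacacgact
unc-18, 351 bp upstream, chrX:7682495-7682595, plus strand: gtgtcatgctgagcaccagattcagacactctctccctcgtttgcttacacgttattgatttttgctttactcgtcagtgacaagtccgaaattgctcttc
unc-10, 4559 bp upstream, chrX:7284831-7284931, minus strand: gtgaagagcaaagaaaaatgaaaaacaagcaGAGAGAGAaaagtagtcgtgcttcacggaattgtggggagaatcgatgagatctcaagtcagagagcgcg
snt-1, 2219 bp upstream, chrII:6808694-6808794, plus strand: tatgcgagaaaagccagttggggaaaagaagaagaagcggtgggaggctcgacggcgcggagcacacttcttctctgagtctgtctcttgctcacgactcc

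Every one of the 9 genes had an FKH-10 peak of the authors' optimal set nearby, and in each a peak lay more than 1000 bp upstream of the gene start. Within a window from 5000 bp upstream of the gene start to the gene end, all 9 held a summit of the authors' optimal peak set, against 16.5% of all protein-coding genes. In all there were 14 such summits, of which 12 lay upstream of the gene start and 2 inside a gene. All 9 genes had a summit between 1001 and 5000 bp upstream, against 9.13% of all genes. Only unc-18 had one from 1000 bp upstream to 200 bp downstream of its start, against 6.38% of all genes. That count, 1 of 9 or 11.1%, is close to the share among all genes and shows nothing particular to these genes. The authors listed 28842 peaks for replicate 1, 28896 for replicate 2 and 19924 for the pool, each with a signal whose scale is not stated and with no read depth. A signal is therefore compared only within its own list. The values of both replicates are given for each optimal summit of the 9 genes, and most other summits have the pooled signal alone. Since the 9 genes were picked with earlier results of these data known, these counts are a description and no test was made.

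**Figure D1:**
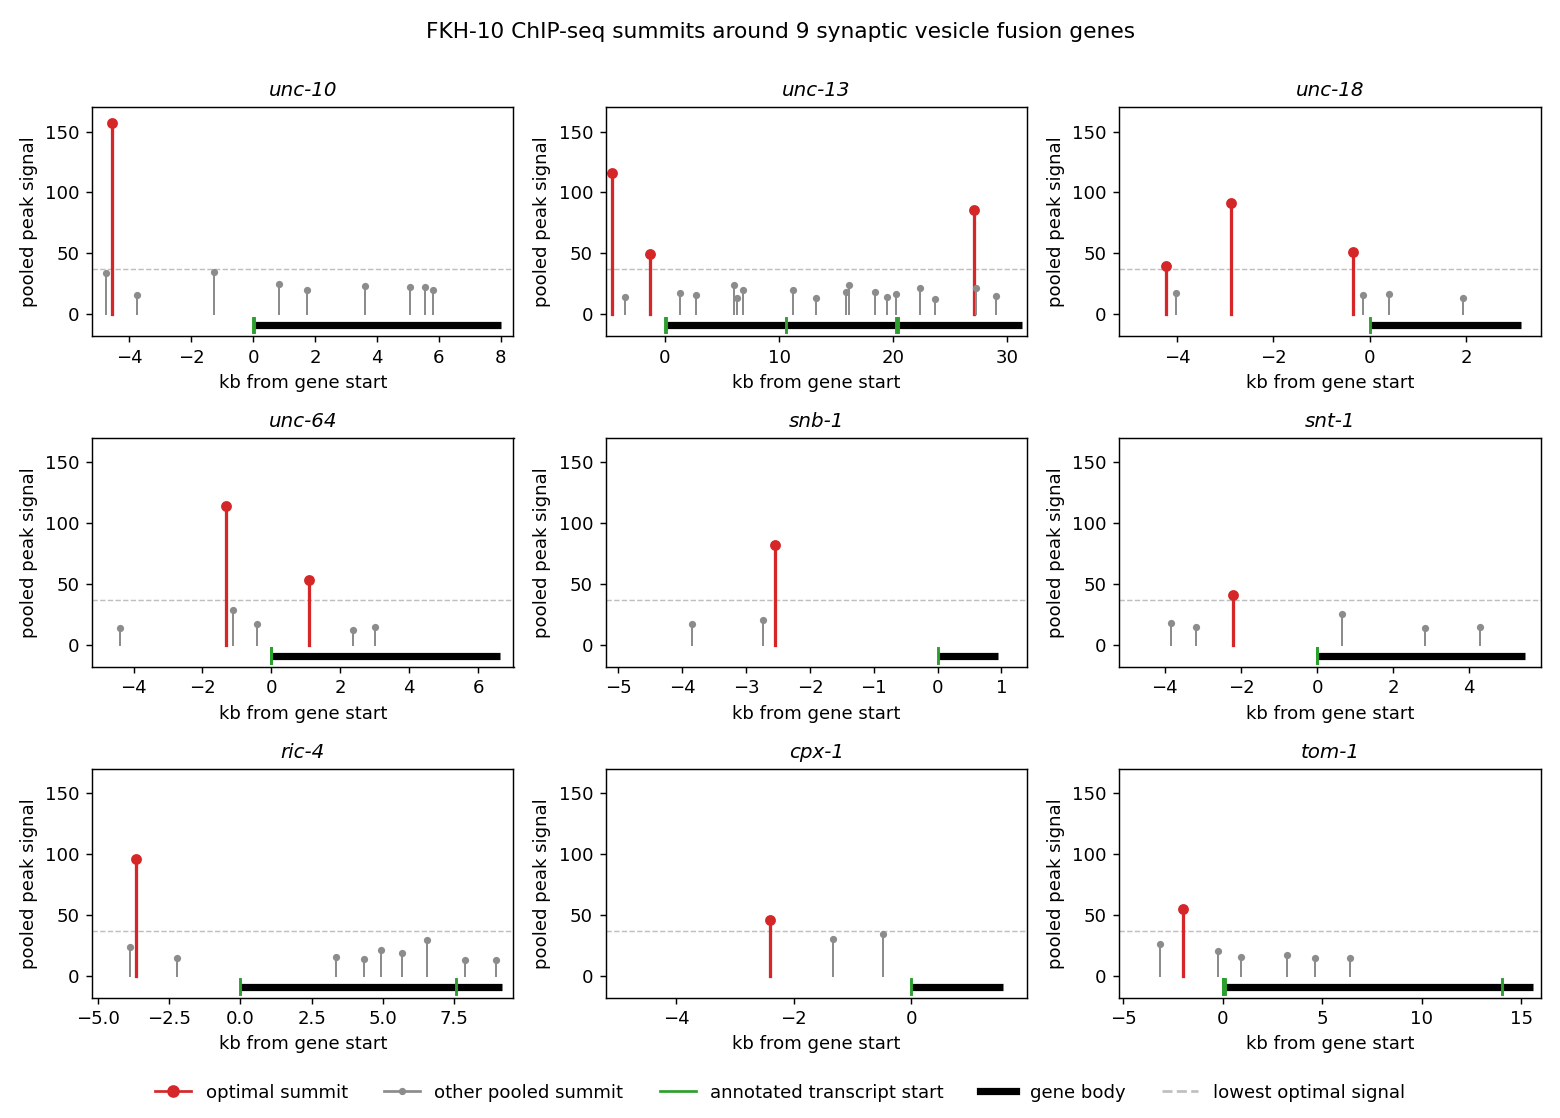
Summits of the pooled FKH-10 peak list around each of the 9 genes, with the distance from the gene start in kb on the horizontal axis (negative is upstream) and the authors' signal per peak on the vertical axis. Red stems are the 14 optimal summits, grey stems the other pooled summits, green ticks transcript starts and black bars gene bodies. The tallest stem, at unc-10, reaches 157, and the red stem nearest to a start is that of unc-18 at 351 bp.

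The windows differ in length and surroundings, and the share among all genes was read accordingly. Of genes with a window under 10 kb, 13.7% held an optimal summit, and the members of that size are snb-1, unc-18 and cpx-1. The share was 29.1% for windows of 10 to 20 kb, where unc-10, unc-64, snt-1 and ric-4 belong, and 44.8% for windows over 20 kb, where unc-13 and tom-1 belong. All 9 genes also had free sequence upstream, from 2276 bp at unc-18 to 14273 bp at unc-13 before the next protein-coding gene. Among the 6306 genes with no protein-coding gene within 2000 bp upstream, 12.2% had an optimal summit 1001 to 5000 bp upstream and 5.71% had one in the promoter window. The cut of 2000 bp is shorter than the stretch examined, and longer cuts were not counted. At least 2 optimal summits were found at unc-13, unc-18 and unc-64, that is at 3 of the 9 genes, against 3.26% of all genes. That share was not split by window length, and the windows of unc-13 and unc-64 are 36332 and 11630 bp long. At unc-18 the summits 2875 and 4234 bp upstream lie nearer to the start of stn-2.

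The SNARE genes come first. Synaptobrevin, the SNARE of the vesicle, is encoded by snb-1 (WBGene00004897; V, 6655562 to 6656501, minus strand), a gene of 940 bp with a single annotated start. Its optimal summit at 6659043 was 2542 bp upstream and had a signal of 81.9, rank 725 in the optimal set. Replicate 1 gave this site a signal of 40.7 and replicate 2 a signal of 38.0, ranks 894 and 792 in their own lists. The site was thus a top peak of both replicates, that is, among as many of a replicate's highest peaks as the optimal set has. The summit fell inside T10H9.10, an annotated non-coding RNA gene, and no protein-coding gene lay between it and snb-1.

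Syntaxin, a SNARE of the plasma membrane, is encoded by unc-64 (WBGene00006798; III, 13277258 to 13283887, plus strand). Its stronger summit, at 13275949, lay 1309 bp upstream with a signal of 114 and rank 305. The replicate signals there were 69.8 in replicate 1 and 47.2 in replicate 2. A second summit, at 13278348, lay 1090 bp inside the gene in intron 2 of 7, an intron of 1039 bp. It had a pooled signal of 53.3, with 25.6 in replicate 1 and 28.3 in replicate 2. The 2 summits flank a start region in which the strongest pooled signal was 17.2, at 407 bp upstream. Replicate 2 had no match for that weak summit, its nearest being 698 bp away.

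The SNAP-25 homologue, which supplies further helices to the SNARE bundle, is encoded by ric-4 (WBGene00004364; V, 10261131 to 10270314, minus strand). The optimal summit at 10273990 lay 3676 bp upstream of its first start, with a signal of 95.7 and rank 500. Replicate 1 had a signal of 42.8 and replicate 2 of 53.4. The nearest protein-coding start was not that of ric-4 but that of Y22F5A.11, at 1656 bp on the far side of the summit.

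The Sec1/Munc18 protein that binds syntaxin is encoded by unc-18 (WBGene00006757; X, 7682896 to 7686037, plus strand), which had 3 optimal summits. The one at 7682545 lay 351 bp upstream and had a signal of 50.8, rank 1712. In replicate 2 its signal was 16.8, rank 2854, and in replicate 1 the nearest summit was 114 bp away with 37.4, rank 1059. It was therefore a top peak of replicate 1 alone. The strongest of the 3, at 7680021, had a signal of 90.9, with 52.4 in replicate 1 and 39.2 in replicate 2. It lay 2875 bp upstream of unc-18 and inside stn-2, a syntrophin gene on the other strand, 598 bp from the start of stn-2. The third, 4234 bp upstream with a signal of 39.6, was also inside stn-2. For both of them stn-2 had the nearer start, and to which gene they belong was not tested.

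Priming of docked vesicles needs UNC-13 and UNC-10. The Munc13 homologue UNC-13 opens syntaxin for SNARE assembly, and its gene (WBGene00006752; I, 7422785 to 7454116, plus strand) is the longest of the 9 at 31332 bp. It had 3 optimal summits. The strongest, at 7418106, lay 4679 bp upstream with a signal of 116, rank 288, and 49.1 and 66.2 in replicates 1 and 2. A weaker one, at 7421431, lay 1354 bp upstream with a signal of 49.6. Its replicates stood further apart, with 15.5 and rank 5265 in replicate 1 and 28.4 and rank 1363 in replicate 2. The third summit, at 7449845, was inside the gene, 6676 bp beyond its last annotated start, in an intron of 2363 bp. Its signal was 85.2, with 42.7 in replicate 1 and 44.4 in replicate 2. No start of unc-13 lay close to it, and the nearest protein-coding start, at 4815 bp, was that of spe-4.

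The RIM homologue, a scaffold of the active zone that works with UNC-13, is encoded by unc-10 (WBGene00006750; X, 7272317 to 7280322, minus strand). Its summit at 7284881 was the strongest of the 14, with a signal of 157 and rank 100 in the optimal set. Replicate 1 gave it 76.6, rank 139, and replicate 2 gave it 85.5, rank 66. It lay 4559 bp upstream, with no protein-coding gene between, and 11809 bp of sequence without one separate unc-10 from lron-7. The 2 pooled summits next in height at unc-10, with 34.8 and 33.6, fell just under 37.0, the lowest signal of the optimal set.

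Calcium triggering, clamping and inhibition complete the list. Synaptotagmin, the calcium sensor, is encoded by snt-1 (WBGene00004921; II, 6810963 to 6816433, plus strand). Its optimal summit at 6808744, 2219 bp upstream, had a signal of 40.7 and rank 2308, close to the lowest in the set. Replicate 1 gave it 15.9, rank 4898, and in replicate 2 the nearest summit was 121 bp away with 26.5, rank 1516, so that it was a top peak of replicate 2 alone. The site lies between snt-1 and the divergent gene F31E8.5, whose start was nearer at 1482 bp. Complexin, which both clamps and promotes fusion, is encoded by cpx-1 (WBGene00022271; I, 1594649 to 1596216, minus strand). Its summit at 1598624, 2408 bp upstream, had a signal of 45.98, with 21.7 in replicate 1 and 22.8 in replicate 2. Tomosyn, an inhibitor that competes for the SNAREs, is encoded by tom-1 (WBGene00006594; I, 5546118 to 5561689, plus strand). Its summit at 5544137, 1981 bp upstream, had a signal of 55.01, with 28.8 in replicate 1 and 24.6 in replicate 2.

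**Figure D2:**
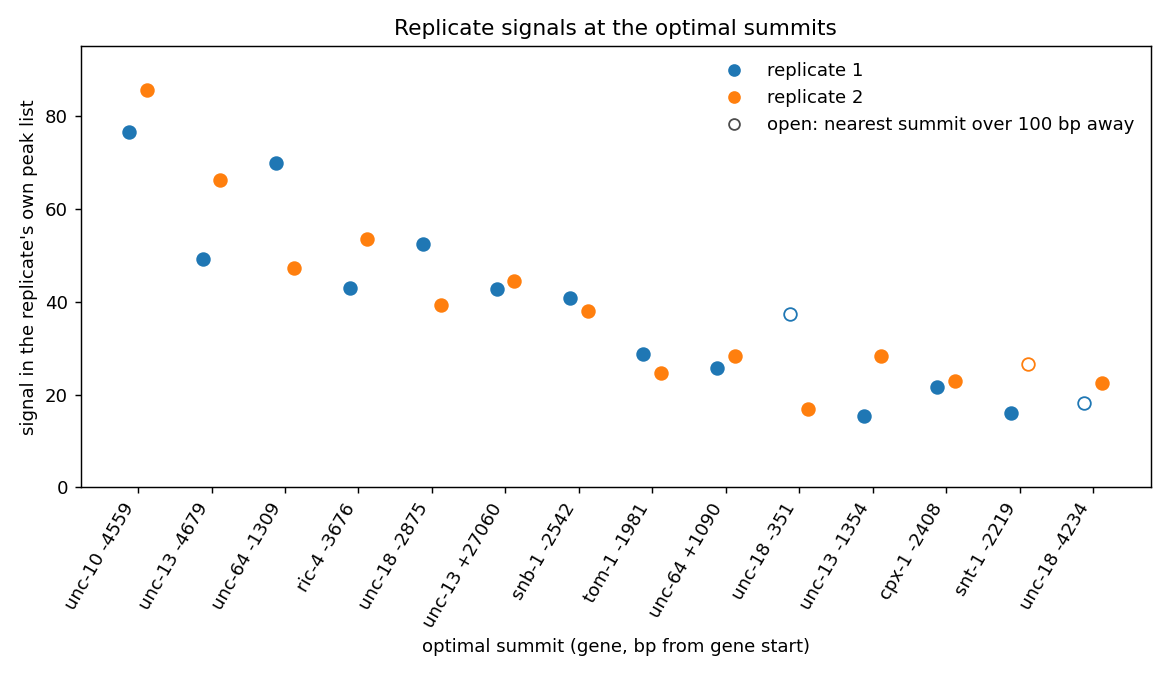
Signal of each replicate at the 14 optimal summits, ordered by pooled signal from left to right; the vertical axis is the authors' signal in each replicate's own peak list. Filled points are summits within 100 bp of the optimal one and open points the nearest summit beyond that. The highest points are 76.6 in replicate 1 and 85.5 in replicate 2, both at unc-10. The lowest are 15.5 in replicate 1 at the unc-13 summit 1354 bp upstream and 16.8 in replicate 2 at unc-18, 351 bp upstream. The last summit, 4234 bp upstream of unc-18, has 22.5 in replicate 2 and, from a summit 135 bp away, 18.3 in replicate 1.

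The replicates marked most of these sites at the same place, though a lower share of them than of all optimal summits. Of the 14 summits, 11 had a summit of both replicates within 100 bp, against 94.7% of all optimal summits. The other 3, a pair at unc-18 and the one at snt-1, had the missing replicate summit 114 to 135 bp away. A top peak of both replicates overlapped 10 of the 14 peaks, against 72.0% of all optimal peaks. The 14 signals ran from 39.6 to 157 with a median of 68.5, beside a median of 60.7 over all optimal peaks. Of the 14, 7 were above the median of the set. At 7 of the 14 a lower pooled summit stood within 250 bp, 200 to 217 bp away, against 9.72% of all optimal summits. Whether these pairs are separate sites was not tested.

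Alternative transcript starts did not change the promoter count. The protein-coding transcripts of the 9 genes have 22 distinct annotated starts, and 1 of them, that of unc-18, had an optimal summit from 1000 bp upstream to 200 bp downstream. With any transcript start allowed, the count remained 1 of the 9 genes, against 7.12% of all genes. Internal starts of unc-13, which give its shorter forms, lie 10632, 20251 and 20384 bp into the gene. At the second of them a pooled summit stood 31 bp away with a signal of 16.2, and at the first the nearest was 548 bp away with rank 6477 in the pooled list. The summit of 16.2 was matched in replicate 2 alone, the nearest in replicate 1 being 1810 bp away. The one at 548 bp was matched in replicate 1 alone, the nearest in replicate 2 being 212 bp away. The internal start of ric-4, 7571 bp into the gene, had a pooled summit of 13.0 at 317 bp, while its optimal summit was 11247 bp off. That summit of 13.0 was matched in replicate 2 alone, the nearest in replicate 1 being 1041 bp away. The internal start of tom-1, 14023 bp into the gene, had no pooled summit nearer than 2297 bp. The pooled list as a whole has a median signal of 16.6.

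Weaker peaks filled the loci more evenly. The pooled list, which holds the optimal peaks and those below the optimal threshold, had a summit at all 9 genes, against 70.7% of all genes. That count of 9 followed from the optimal peaks alone and says nothing about the weaker ones. It held 73 summits in the 9 windows, from 3 each at snb-1 and cpx-1 to 20 at unc-13. Of the 59 below the threshold, 18 had a summit of both replicates within 100 bp, beside 24.1% of the 17322 such summits in the genome. The closest to the threshold were those at unc-10 and the cpx-1 summit 481 bp upstream of the start, which had a signal of 34.1. That cpx-1 summit had a match of 13.9 in replicate 2, while the nearest in replicate 1 was 116 bp away. At tom-1 a summit 252 bp upstream had a signal of 19.9, and the nearest summit in replicate 1 was 1042 bp away. No pooled summit lay in the promoter windows of unc-10, snb-1, snt-1 and ric-4, at any of their starts. At unc-13 none lay in that of the gene start, and those present were at the internal starts 20251 and 20384 bp into the gene.

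Upstream sequence held most of the optimal summits, while summits of the pooled list were spread over upstream sequence and gene bodies. Over the 5000 bp upstream of the 9 genes, 45 kb in sum, optimal summits had a density of 2.67 per 10 kb, against 0.329 over all protein-coding genes. Within the gene bodies, 81.8 kb in sum, the density was 0.244 per 10 kb, against 0.146 over all genes. Only unc-13 and unc-64 had an optimal summit in the gene body, that is 2 of the 9 genes, against 3.40% of all. Pooled summits, by contrast, had densities of 6.89 upstream and 5.13 in the bodies of the 9 genes, against 2.02 and 1.79 over all genes. These pooled densities include the optimal summits, and the weaker peaks were not counted apart.

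Step by step upstream, the sites of the 9 genes were spread over the whole 5000 bp. Between 1 and 1000 bp there was 1 gene with a summit, unc-18, against 6.09% of all genes. Between 1001 and 2000 bp there were 3, unc-13, unc-64 and tom-1, against 2.67%. Between 2001 and 3000 bp there were 4, unc-18, snb-1, snt-1 and cpx-1, against 2.60%. The next 1000 bp held that of ric-4 alone, against 2.46%. The farthest, from 4001 to 5000 bp, held summits of unc-10, unc-13 and unc-18, against 2.34%. Over all genes the first 1000 bp were the commonest place. Over the 9 genes the third 1000 bp held the most, but 4 genes beside 3 is too small a lead to show a preferred place.

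**Figure D3:**
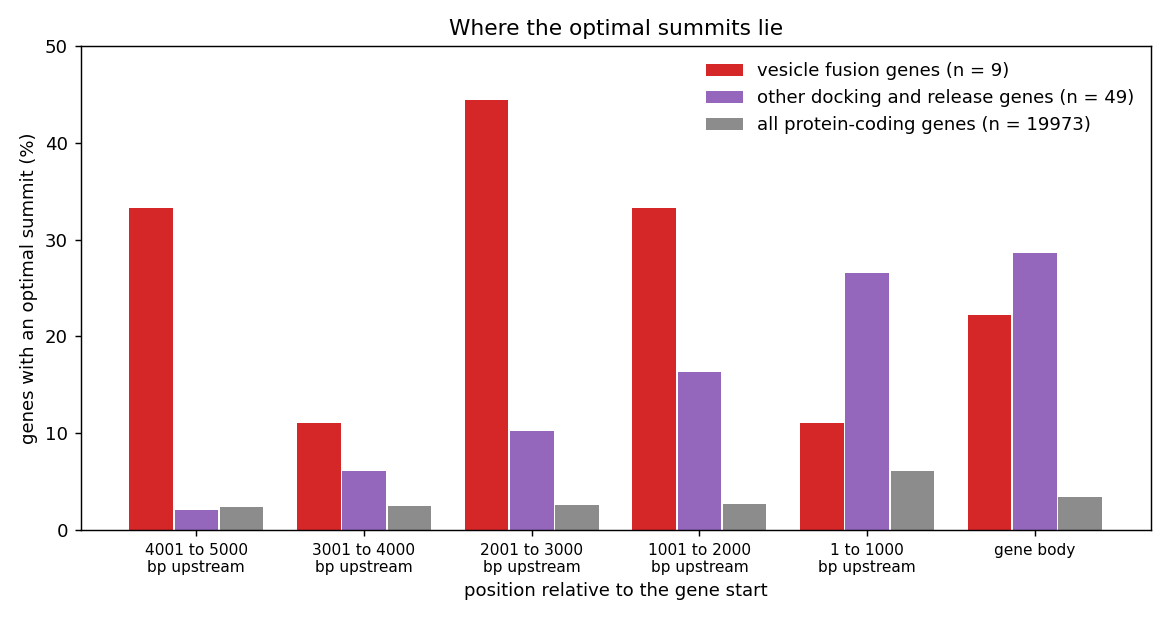
Percentage of genes with an optimal summit in each stretch of upstream sequence and in the gene body. Red bars are the 9 vesicle fusion genes, purple bars 49 other genes of vesicle docking and release, and grey bars all 19973 protein-coding genes. The red bar stands at 11.1% from 1 to 1000 bp upstream, where the purple bar stands at 26.5%, and at 33.3%, 44.4%, 11.1% and 33.3% in the next 4 stretches.

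Optimal summits were also present at other genes of docking, priming and release. The 49 genes were listed by role with earlier results of these data known, and a difference between them and the 9 was not tested. An optimal summit stood in the window from 5000 bp upstream to the gene end of 30 of them (61.2%), beside 16.5% of all genes. At 18 (36.7%) one lay in the promoter window of a transcript start, beside 7.12% of all genes. At 14 (28.6%) one lay 1001 to 5000 bp upstream, beside 9.13% of all genes. The strongest at a start was that of egl-30, the Gq alpha subunit gene that promotes release, with a signal of 148, 73 bp upstream. Next came snt-4, a synaptotagmin paralog, with 138, and rbf-1, the rabphilin gene, with 130.1. The rbf-1 summit lay 241 bp upstream of an internal start and 19572 bp downstream of the gene start. Signals in replicates 1 and 2 were 80.48 and 67.95 at egl-30, 94.96 and 39.95 at snt-4, and 79.77 and 51.95 at rbf-1. The vesicle GTPase gene rab-3 had 122 at 42 bp upstream, eat-16, an RGS protein gene, had 113, and syd-2, the liprin-alpha gene of the active zone, had 101.5. The CAPS gene unc-31, needed for dense-core vesicle release, had 89.2 at 124 bp upstream, and pkc-1, a protein kinase C gene, had 81.3.

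The rest of the 18 had lower signals at their starts, which shows the range of this group there. Among the SNARE paralogs, 1 of 10 had a summit at a start, close to the 7.12% of all genes. It was syx-5 with 61.97 in the pool, 17.58 in replicate 1 and 47.17 in replicate 2. Both genes of SNARE disassembly had a summit at a start, nsf-1 with 46.8 and snap-1 with 39.2. The RAB-3 exchange factor gene aex-3 had 59.2, sly-1, which encodes an SM protein of the Golgi, had 49.8, and the active zone gene cla-1 had 49.2. The calcium channel genes unc-36 and egl-19 had 48.6 and 47.4, the CaM kinase II gene unc-43 had 42.1 and the synaptotagmin paralog snt-2 had 38.4. Stronger optimal summits lay elsewhere in the windows of egl-19 (116.2), sly-1 (94.7), cla-1 (93.0), unc-43 (78.6), nsf-1 (51.4) and snt-2 (43.3). At syx-5, snap-1, aex-3 and unc-36 the summit at the start was the strongest optimal one of the window. None of the 3 vesicle membrane genes, sng-1, sph-1 and snn-1, had an optimal summit in its window. Beside the 16.5% of all genes, none in 3 shows nothing particular to them. The neuronal SNARE genes snb-1, unc-64 and ric-4 all had optimal summits in their windows, against 3 of the 10 paralogs, a difference that was not tested.

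Short words were counted in the sequences under the summits. With 50 bp taken on either side of each summit, and on both strands, the words GTAAACA and also ATAAACA, then GTAAATA as well as ATAAATA, were found at 0 of the 14 summits and at 5.03% of all optimal summits, a share so low that a count of 0 in 14 is near it. The GATA word TGATAA, the homeodomain word TAATTA and the E-box CACGTG were likewise at 0 of 14, beside 2.998%, 1.54% and 2.42% of all. At 2 of the 14, the unc-10 summit and the upstream unc-64 summit, the word GAGAGAGA was present, beside 6.69% of all. G and C made up a median of 47.03% of the 14 windows and 45.5% of all. The longest unbroken run of pyrimidines or of purines had a median of 15.5 bp in the 14 windows, with a range from 11 to 28 bp. Over all optimal summits its median was 10 bp, with a range from 3 to 80 bp. This measure was chosen after the sequences had been seen. A match or its absence concerns these letters in these windows and is not a statement about binding.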

How the data were processed

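FKH-10 ChIP-seq was measured in 2 replicates of L1 larvae. The authors deposited narrowPeak lists for each replicate, for the pooled replicates and as an optimal set (peaks past a cut on the irreproducible discovery rate), with a signal value per peak whose scale is not given, per the labels and the deposited text files. The aligner, the peak caller and the versions of both are not given in the sources used. The lists hold no read counts, so depth is unknown and no interval that needs it is given. The ce11 lists were used; the ce10 lists were not. The optimal peaks were the pooled peaks of highest signal.

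Summits (peak start plus offset) were placed on Ensembl release 115 genes with Python 3.11.15; positions are 1-based. Replicate summits were matched within 100 bp, and the top peaks of a replicate are its highest by signal, as many as the optimal set has. Members and lists were chosen with earlier results of these data known. All members and all their optimal summits are named; other pathway genes are named where a summit lay at a transcript start. With 1 condition no test was made. The alternatives were other peak sets, windows and matching distances. The counting code was tested on simulated data.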

Additional observations from a re-analysis of the deposited data

How the results depend on the processing

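The count of genes with an optimal summit in the window, 9 of 9, was 8 to 9 with 1 replicate left out (the top peaks of the other replicate), 8 with optimal peaks that both replicates had and 7 when each summit counted for the nearest transcript start alone. It was 6 with the optimal peaks above the median signal. Leaving out replicate 2 lost snt-1, as did the requirement of both replicates. With 2000 bp of upstream sequence the counts were 4 genes and 6 summits, and with the gene body alone 2 genes and 2 summits. An optimal summit in the gene body was found at 3.40% of all genes. For the other alternatives in this section no share of all genes is given. Their counts therefore do not show whether the excess over all genes holds under them. The number of summits, 14, was 7 among the optimal peaks above the median signal, 9 by nearest transcript start and 11 to 14 with 1 replicate left out. The promoter count, 1 gene by gene start or by any transcript start, was 0 among the optimal peaks above the median signal and 0 with peaks that both replicates had. It was 0 to 1 with 1 replicate left out, unc-18 being lost without replicate 1, and 4 with a window from 2000 bp upstream to 500 bp downstream. Summits with a match in both replicates, 11 of 14, numbered 10 within 50 bp and 14 within 200 bp. No paired analysis was possible because there is 1 group. Depth is unknown, which limits what the weak peaks can show.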
